A study of Mus musculus with 15 samples.

Results

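The genes described here are the core writers, readers and erasers of N6-methyladenosine (m6A) in mouse CD8+ T cells. Members were chosen by name. They are the writer genes Mettl3, Mettl14 and Wtap, the reader genes Ythdf1, Ythdf2, Ythdf3, Ythdc1 and Ythdc2, and the eraser genes Alkbh5 and Fto. These 10 genes were among 55536 annotated genes in the count table, and 62 of the 141862 annotated transcripts and 125 of the 138940 splicing events belonged to them. All 10 genes passed the filter on low counts.

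m6A is a methyl mark on adenosines inside messenger RNA. A heterodimer of METTL3, the catalytic subunit, and METTL14, which helps to bind the RNA, places the mark with the adaptor WTAP, and the demethylases ALKBH5 and FTO can remove it. Proteins with a YTH domain bind the mark: YTHDF1, YTHDF2 and YTHDF3 in the cytoplasm, where YTHDF2 recruits the CCR4-NOT deadenylase, YTHDC1 in the nucleus, where it acts in splicing and export, and YTHDC2, which carries an RNA helicase domain. In T cells, Mettl3 is known for its part in the decay of Socs transcripts, which restrain cytokine signalling.

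To ask what costimulation does to antigen-activated cells, the study transferred CD8+ T cells of OT-I mice into C57BL/6J recipients (strain label OT-1 Tg C57BL/6J). OT-I cells carry 1 transgenic receptor for an ovalbumin peptide and, per the study's methods, came from Rag1-/- or Rag2-/- donors. The Ag group received that peptide with rat IgG, and the Ag+Costim group received the peptide with agonist antibodies against OX40 (CD134) and 41BB (CD137). Spleen and lymph node cells were sorted as CD8+ cells on day 4 by the labels, and poly(A) RNA was sequenced from 5 libraries per group. By the methods, the sort used CD8, the congenic marker CD45.1 and both chains of the transgenic receptor, after a slightly shorter time. Ages and sexes are given only for the study as a whole. The labels also list 5 Naive libraries of untransferred OT-I cells, which were not analysed here.

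Estimated counts per library summed to between 59598556 (Ag 3) and 639070261 (Ag+Costim 3). The Ag libraries were not alike. Ag 1, 3 and 4 had counts on 40441 to 51778 genes, Ag 2 and 5 on 20714 and 21779, and the Ag+Costim libraries on 28727 to 30340. The 5 CD8 T cell markers (Cd3d, Cd3e, Cd3g, Cd8a and Cd8b1) summed to between 2521 and 4965 CPM (counts scaled to a common library total) in Ag and between 3243 and 4060 in Ag+Costim, so the defining markers of the labelled cell type were present in every library. The 5 B cell markers summed to 131, 337 and 183 CPM in Ag 1, 3 and 4 against 33.2 and 40.2 in Ag 2 and 5, and to 30.4 to 50.2 in Ag+Costim. The 5 erythroid markers summed to 1102 CPM in Ag 3, to between 14.7 and 125 in the other Ag libraries and to between 3.80 and 39.4 in Ag+Costim. The 5 myeloid markers ranged from 35.4 to 94.8 CPM in Ag and from 65.2 to 139 in Ag+Costim, while Cd4 with Foxp3 and Ncr1 with Klrb1c each stayed at or below 16.4 CPM. The 8 proliferation markers summed to 419 and 454 CPM in Ag 1 and 4 and to 2076 in Ag 3, but to 3458 and 3533 in Ag 2 and 5, beside 3390 to 4145 in Ag+Costim. In bulk RNA, fewer cells of a type and less RNA per cell cannot be told apart, and the part of these differences in the results below was not tested.

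Some of the member genes are shown by short stretches of sequence, because their splicing or ends carry the isoform results given further on. Ythdf1, Ythdf2 and Ythdf3 share a coding exon of 25 bases, read here 5′ to 3′ on the coding strand from GENCODE release M21 transcripts (mm10), with capitals at the 6 positions where the 3 paralogs are not all the same.
Ythdf1, chr2:180920312-180920336, minus strand: agaAcAaaaggAcaagATaaTaaag
Ythdf2, chr4:132211432-132211456, minus strand: agaCcAaaaggTcaagGAaaCaaag
Ythdf3, chr3:16183922-16183946, plus strand: agaCcTaaaggGcaagGAaaTaaag
Ythdf2 and Ythdf3 were identical at 22 of 25 bases, and Ythdf1 matched each of them at 20 of 25. In Ythdc1, a coding extension of 24 bases is included when an upstream splice acceptor is used, and capitals mark the AG just before the downstream acceptor.
Ythdc1, chr5:86831773-86831796, plus strand: ttttacaaatcttattcccaacAG

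Gene-level abundance was compared first, with gene positions given on mm10. In edgeR's quasi-likelihood test with Benjamini-Hochberg (BH) adjustment over 24262 genes, 0 of 10 members were called at an adjusted p under 0.05, as were 0% of all genes. At an unadjusted p under 0.05 there were 4501 genes (18.6%) and 4 members. These were Mettl14, Ythdf2, Alkbh5 and Fto, all with higher means in Ag+Costim, where 20.2% of the 8626 genes at a mean of 10 CPM or more met the same condition in that direction. The median log2 fold change of the 10 members was 0.26, beside 0.24 for genes at 10 CPM or more and -0.32 for all genes tested, so the members lay at the centre of the expressed genes. DESeq2 called 2 members higher in Ag+Costim, Mettl14 (adjusted p = 0.0469) and Ythdf2 (adjusted p = 0.0286), where it called 8.27% of the genes at 10 CPM or more.

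Mettl3 (chr14:52294841-52305128, minus strand) was at 38.8, 48.0, 35.6, 38.4 and 56.1 CPM in Ag 1 to 5 and at 48.9, 44.7, 49.2, 53.6 and 47.8 CPM with costimulation 1 to 5. Ag 1, 3 and 4 lay below the Ag+Costim libraries, Ag 2 among them and Ag 5 above them, and the log2 fold change was 0.17 ± 0.15 (SE, edgeR, adjusted p = 0.469). Mettl3 overlaps Tox4 on the opposite strand over 933 exonic bases, so its counts are uncertain where strand was not kept.

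Mettl14 (chr3:123368297-123386108, minus strand) was at 23.9, 40.8, 29.4, 26.5 and 42.2 CPM in Ag and at 45.0, 42.2, 46.2, 49.9 and 50.1 CPM with costimulation. Ag 1, 3 and 4 lay well below all Ag+Costim libraries while Ag 5 reached the lowest of these and Ag 2 lay just below it. The log2 fold change was 0.52 ± 0.18 (SE, edgeR, adjusted p = 0.236).

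Wtap (chr17:12966796-12994169, minus strand) was at 54.9, 85.0, 56.2, 57.7 and 92.5 CPM in Ag and between 78.7 and 85.0 CPM with costimulation. Ag 1, 3 and 4 lay below the Ag+Costim range, as for Mettl14, whereas Ag 2 lay at its top and Ag 5 above it. The log2 fold change was 0.26 ± 0.17 (SE, edgeR, adjusted p = 0.36). The 5 Ag+Costim libraries were close together for this gene, with a coefficient of variation of 2.98% against 26.0% in Ag.

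**Figure D1:**
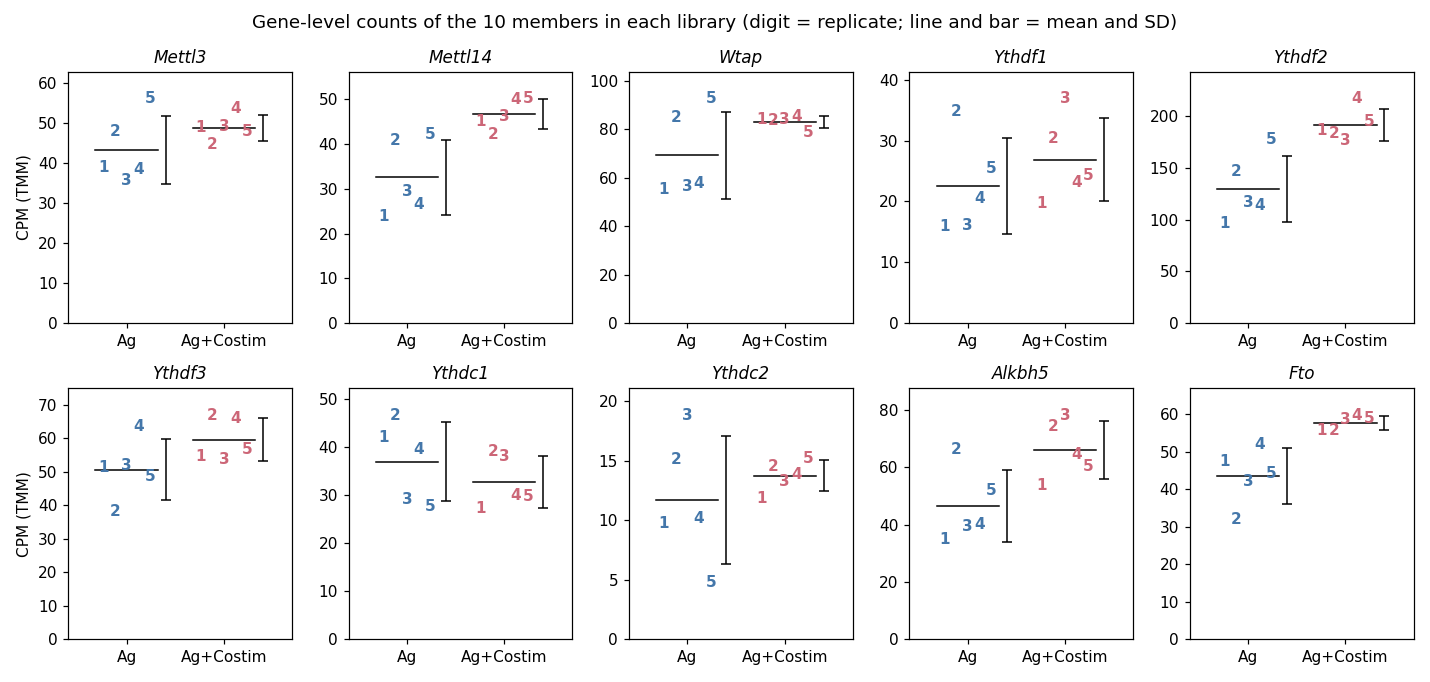
Each panel plots the CPM (TMM scaling, y axis from 0) of 1 member gene in the 5 Ag libraries (blue) and the 5 Ag+Costim libraries (red). Digits are replicate numbers, horizontal lines are means and bars are SD. Fto is the gene whose groups do not overlap, and for Mettl3, Mettl14, Wtap, Ythdf1, Ythdf2 and Alkbh5 Ag 2 and 5 stand above Ag 1, 3 and 4.

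Among the readers, Ythdf2 (chr4:132184912-132212303, minus strand) was the most abundant and had the largest fold change. It was at 96.2, 147, 116, 114 and 177 CPM in Ag and at 187, 184, 176, 217 and 195 CPM with costimulation. Only Ag 5 reached the Ag+Costim range, just above the lowest of those libraries, and the log2 fold change was 0.56 ± 0.18 (SE, edgeR, adjusted p = 0.223), or 1.47-fold.

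Ythdf1 (chr2:180904377-180920949, minus strand) ranged from 15.8 to 34.7 CPM in Ag with a median of 20.5, and from 19.7 to 36.9 CPM in Ag+Costim with a median of 24.2. These ranges overlapped almost completely, and the log2 fold change was 0.26 ± 0.25 (SE, edgeR, adjusted p = 0.526). Ythdf3 (chr3:16183212-16217037, plus strand) was at 51.3, 38.3, 51.8, 63.6 and 48.5 CPM in Ag and at 54.6, 67.0, 53.6, 65.9 and 56.7 CPM with costimulation, with a log2 fold change of 0.23 ± 0.15 (SE, edgeR, adjusted p = 0.355). Here Ag 4 lay among the Ag+Costim libraries and Ag 2 was the lowest library, so the order of the Ag libraries was not that of Ythdf2.

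Ythdc1 (chr5:86804221-86836659, plus strand) was the member with a lower mean in Ag+Costim, at 42.1, 46.8, 29.2, 39.5 and 27.7 CPM in Ag and at 27.2, 39.1, 38.2, 29.9 and 29.7 CPM with costimulation. The groups overlapped throughout, with a log2 fold change of -0.17 ± 0.18 (SE, edgeR, adjusted p = 0.549). It shares 631 exonic bases with the noncoding gene Gm43055 on the same strand, so part of its counts cannot be assigned with certainty. Ythdc2 (chr18:44827746-44889724, plus strand) was the least abundant member, at 9.73, 15.1, 18.8, 10.1 and 4.77 CPM in Ag and at 11.8 to 15.2 CPM with costimulation, with a log2 fold change of 0.23 ± 0.30 (SE, edgeR, adjusted p = 0.632). Its spread in Ag, a coefficient of variation of 46.1%, was the widest of the members.

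The erasers were both at higher means in Ag+Costim. Alkbh5 (chr11:60536381-60558512, plus strand) was at 34.9, 66.3, 39.5, 40.1 and 51.9 CPM in Ag and at 53.6, 74.4, 78.3, 64.4 and 60.5 CPM with costimulation. Ag 2 lay inside the Ag+Costim range and Ag 5 just below it, and the log2 fold change was 0.51 ± 0.19 (SE, edgeR, adjusted p = 0.254).

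Fto (chr8:91313525-91668439, plus strand) was the single member whose groups did not overlap, at 47.3, 31.9, 42.2, 51.9 and 44.1 CPM in Ag and at 55.5, 55.7, 58.5, 59.7 and 58.7 CPM with costimulation. The log2 fold change was 0.41 ± 0.14 (SE, edgeR, adjusted p = 0.237), and the lowest library was Ag 2, which for Mettl14, Wtap and Alkbh5 was among the highest of Ag. Separation in this direction held for 4.48% of all genes tested and for 11.3% of those at 10 CPM or more, so 1 of 10 members is near the background. Fto overlaps 8 other annotated genes, with at most 304 exonic bases in common with any of them. With total-count scaling its groups overlapped.

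How far the members appeared to differ depended on scaling and on which Ag libraries were compared. With total counts as the scale, 6 of 10 members had positive and 4 negative log2 fold changes, with a median of 0.03, and Mettl14 and Ythdf2 were the members without overlap (2.76% of all genes tested were higher without overlap). The share at 10 CPM or more, where the members lie, was not computed for this scale. With TMM it was 11.3%, against 4.48% of all genes tested. That scale placed the median of all genes tested at -0.65, against -0.32 with TMM. With library weights (limma voom), which gave Ag 2 and 5 weights of 0.0986 and 0.0656 and the other libraries 0.508 to 3.35, 6 members were called higher in Ag+Costim, beside 57.6% of the genes at 10 CPM or more. Without Ag 2 and 5, edgeR called 7 members higher (Mettl3, Mettl14, Wtap, Ythdf1, Ythdf2, Alkbh5 and Fto), beside 61.8% of the genes at 10 CPM or more. Both shares of members are close to those backgrounds. In that comparison Ythdf2 had a log2 fold change of 0.94 ± 0.11 (SE, edgeR, adjusted p = 0.000433) and Mettl14 one of 0.93 ± 0.11 (adjusted p = 0.000429). Without Ag 1 and 4, edgeR called 0 members, with Ythdf2 at 0.40 ± 0.15 (adjusted p = 0.338) and Mettl14 at 0.33 ± 0.14 (adjusted p = 0.363). Ag 2 and 5 are the libraries with the fewest detected genes, the lowest B cell marker sums in Ag and the highest proliferation marker sums in Ag. Leaving out 1 library moved the log2 fold changes of 5 members by over 1.5 times, with no call. That of Ythdc2 was 0.05 without Ag 5, 0.47 without Ag 3 and 0.38 without Ag 2, and that of Ythdf1 was 0.13 without Ag+Costim 3, 0.16 without Ag 1 or Ag 3 and 0.48 without Ag 2. Mettl3 moved to 0.11 without Ag 3 and 0.30 without Ag 5, Wtap to 0.40 without Ag 5, and Ythdc1 to -0.05 without Ag 2 and -0.10 without Ag+Costim 1.

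**Figure D2:**
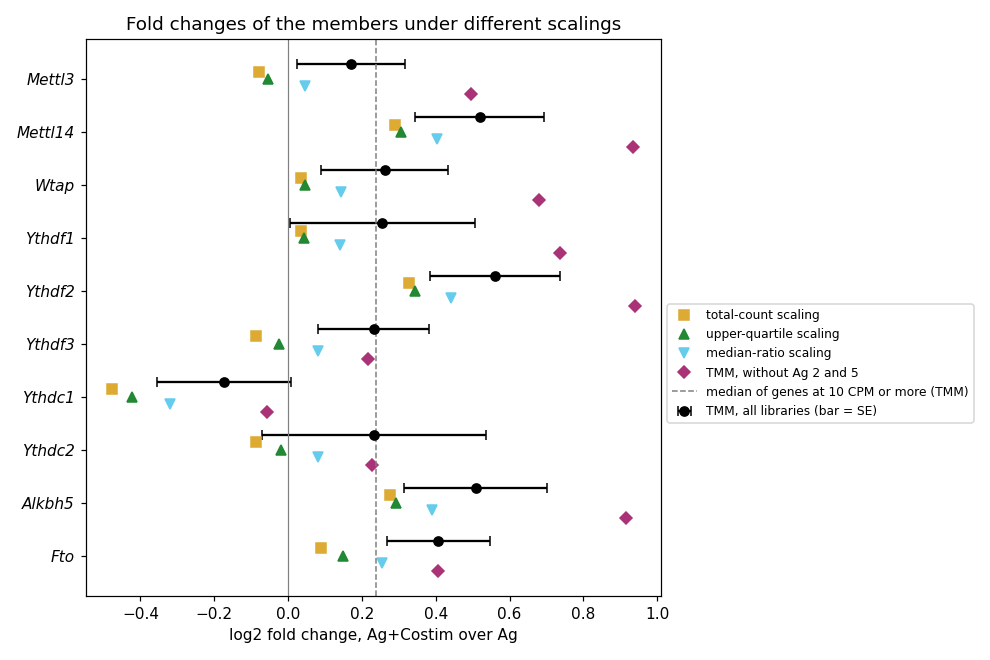
Log2 fold changes (x axis, Ag+Costim over Ag) of the 10 members (y axis) with TMM scaling (black, bar = SE), with 3 other scalings, and with TMM scaling without Ag 2 and 5. The dashed line is the median of genes at 10 CPM or more, 0.24, and Mettl3, Ythdf3 and Ythdc2 lie below 0 with total-count and upper-quartile scaling.

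A ratio of counts within a library does not depend on scaling. Each of the other 9 members was therefore set against Mettl3, a measure added after the gene values had been seen. The count of Mettl14 was 0.616, 0.851, 0.826, 0.691 and 0.752 of that of Mettl3 in Ag, and 0.921, 0.944, 0.938, 0.932 and 1.05 of it in Ag+Costim. Every Ag+Costim library had a higher ratio than every Ag library, Ag 2 and 5 included. The count of Ythdf2 was 2.48, 3.06, 3.26, 2.96 and 3.16 times that of Mettl3 in Ag and 3.82, 4.11, 3.58, 4.05 and 4.07 times in Ag+Costim, again without overlap. The other 7 ratios overlapped between groups. Of 8621 other genes at 10 CPM or more, 6.38% had ratios to Mettl3 that were higher in Ag+Costim without overlap.

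**Figure D3:**
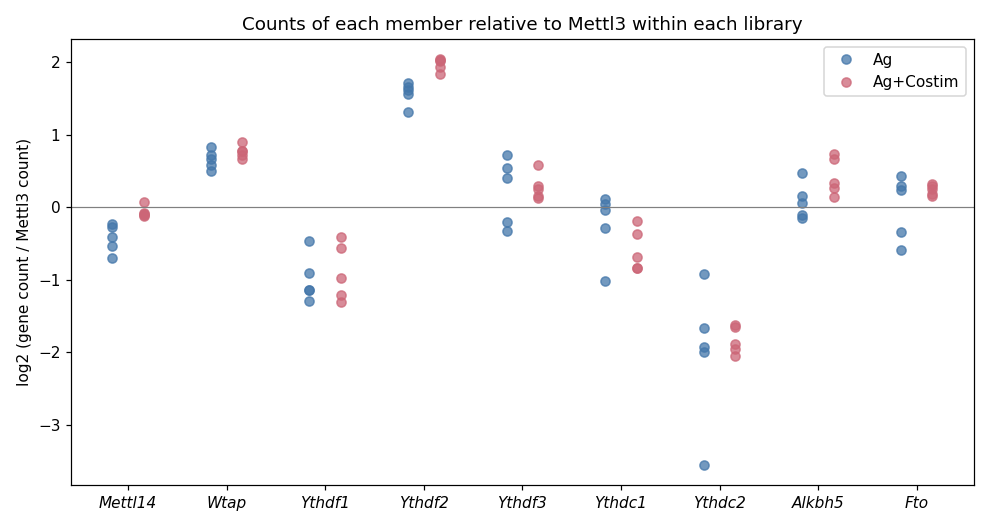
Log2 of the count of each of 9 members over the count of Mettl3 (y axis) in each library, for Ag (blue) and Ag+Costim (red). Mettl14 and Ythdf2 are separated between groups, while the other 7 members overlap.

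To compare levels between members, transcript counts were divided by transcript length and scaled to the same sum in each library (TPM, a level comparable between genes). By the mean over all 10 libraries, which sets the order given here, Ythdf2 stood highest, with a mean level of 60.5 ± 2.80 TPM in Ag and 81.2 ± 5.89 TPM with costimulation (SD, n = 5 per group). Wtap followed at 42.1 ± 3.25 and 45.8 ± 1.07 TPM, then Mettl3 at 37.9 ± 5.0 and 37.8 ± 1.91 TPM. Wtap and Mettl3 overlapped in Ag but not in Ag+Costim. Next came Fto at 21.2 ± 7.44 and 24.3 ± 0.692 TPM, Mettl14 at 18.3 ± 0.899 and 23.5 ± 2.12 TPM, Ythdf3 at 19.3 ± 6.56 and 19.5 ± 1.88 TPM and Ythdc1 at 18.9 ± 6.21 and 14.7 ± 2.33 TPM, which were not separated from each other in Ag beyond their spread. In Ag+Costim, Mettl14 overlapped with Fto and with Ythdf3, while Ythdc1 lay just below Ythdf3. Alkbh5 at 13.96 ± 1.99 and 18.0 ± 2.63 TPM, Ythdf1 at 11.8 ± 2.52 and 13 ± 3.30 TPM and Ythdc2 at 4.82 ± 2.99 and 3.42 ± 0.335 TPM stood lowest, although in Ag+Costim alone the mean of Alkbh5 was above that of Ythdc1. Each of these overlapped with its neighbour except Ythdc2, which lay below the others in all 10 libraries. Per length, Mettl14 and Ythdf2 were the members without overlap between groups, both higher in Ag+Costim, as were 12.8% of 8622 genes at 10 CPM or more. Fto overlapped on this scale, at 12.5 to 28.6 TPM in Ag and 23.5 to 25.05 TPM in Ag+Costim. The means of Ythdc2 and, slightly, Mettl3 were lower in Ag+Costim in TPM but higher in CPM. The groups of both genes overlapped on either scale.

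The other genes of the pathway were taken from lists written by name. None of them was called by edgeR (0 genes after BH adjustment), while DESeq2 called 8 of these 46 genes, all higher in Ag+Costim, beside 8.27% of the genes at 10 CPM or more. In either direction, limma voom with library weights called 31 of them beside 70.1% of the genes at 10 CPM or more, and edgeR without Ag 2 and 5 called 32 beside 66.1%. The counts for each list below can be read against the shares of genes at 10 CPM or more that were higher in Ag+Costim, 20.2% at an unadjusted p under 0.05 and 11.3% without overlap. These shares do not cover Igf2bp1, Igf2bp2, Socs2, Cish and Alkbh2, whose means were under 10 CPM in both groups. Over all genes tested, 4.48% were higher without overlap. Every listed gene at an unadjusted p under 0.05 had the higher mean in Ag+Costim. Of 11 further writer genes, 7 had an unadjusted p under 0.05, 4 were higher in Ag+Costim without overlap and 0 were lower, with a median log2 fold change of 0.40. The leading one was Rbm15, whose product brings the methyltransferase to its RNA targets, at 11.02 to 20.6 CPM in Ag and 25.2 to 35.1 CPM with costimulation (log2 fold change 0.91 ± 0.18, SE, edgeR, adjusted p = 0.134). Zcchc4, the methyltransferase of 28S ribosomal RNA, was also separated (20.5 ± 2.05 CPM in Ag and 29.0 ± 1.75 CPM with costimulation, SD, n = 5 each), whereas the METTL3 complex scaffold Virma (74.7 ± 16.2 and 107.6 ± 8.05 CPM) and the cap methyltransferase Pcif1 (145.8 ± 24.2 and 192 ± 6.49 CPM) overlapped. Rbm15b, the paralog of Rbm15, had the largest p of this list and a log2 fold change of 0.08 ± 0.18 (SE, edgeR, adjusted p = 0.783).

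Of 8 further reader genes, 3 had an unadjusted p under 0.05 and 1 was without overlap, the latter close to the background share. That gene was Hnrnpa2b1, a nuclear RNA-binding protein, at 592 to 1783 CPM in Ag and 1967 to 2293 CPM with costimulation. The mean levels of Prrc2a (20.5 ± 7.89 and 33.2 ± 2.67 CPM), Fmr1 (31.4 ± 12.6 and 47.1 ± 4.64 CPM) and Igf2bp3 (7.99 ± 5.11 and 16 ± 3.85 CPM) were also higher in Ag+Costim (SD, n = 5 per group), and the groups of each overlapped. The means of Igf2bp2 differed by less than its spread (1.56 ± 0.708 and 1.53 ± 0.565 CPM).

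In the list named for the supply of the methyl donor S-adenosylmethionine, 2 of 5 genes had an unadjusted p under 0.05, and the same genes were without overlap. Mat2a, which encodes the catalytic subunit of the synthetase that makes it, was at 180, 298, 206, 186 and 330 CPM in Ag and between 338 and 452 CPM with costimulation (log2 fold change 0.65 ± 0.20, SE, edgeR, adjusted p = 0.222). The other was Ahcyl2, at 34.9 to 51.2 CPM in Ag and 56.3 to 66.6 CPM with costimulation. Ahcyl1 and Ahcyl2 were listed as genes like Ahcy, and whether they act in methyl donor supply was not tested. Ahcyl1 (31.9 ± 4.66 and 41.3 ± 9.56 CPM), Ahcy (95.03 ± 69.4 and 144 ± 11.7 CPM) and the regulatory subunit Mat2b (176 ± 33.2 and 182 ± 7.79 CPM) overlapped.

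In the CCR4-NOT deadenylase, the partner of YTHDF2, 6 of 11 genes had an unadjusted p under 0.05 and 2 were without overlap, the latter close to the background share. Cnot3 was at 43.6 to 64.3 CPM in Ag and 76.1 to 84.1 CPM with costimulation, and the catalytic subunit Cnot7 at 43.6 to 81.5 and 89.97 to 108.8 CPM. The scaffold Cnot1 (122 ± 30.1 and 170.8 ± 22.4 CPM) and Cnot10 (73.2 ± 23.2 and 103.5 ± 5.19 CPM) overlapped, as did Cnot4 (36.1 ± 8.09 and 34.1 ± 1.46 CPM), the gene of the list with the largest p. The Socs list had 0 of 4 genes at an unadjusted p under 0.05, with Socs1 at 14.3 ± 4.99 and 13.7 ± 4.35 CPM, Socs3 at 20.5 ± 13.7 and 17.1 ± 5.62 CPM, Socs2 at 2.20 ± 3.04 and 1.203 ± 0.405 CPM and Cish at 1.83 ± 1.29 and 2.16 ± 0.651 CPM (SD, n = 5 per group). Of 7 other AlkB dioxygenase genes, relatives of the erasers, 0 had an unadjusted p under 0.05, and their median log2 fold change was 0.06. Those with the smallest p were Alkbh6 (28.9 ± 4.55 and 25.6 ± 1.825 CPM), Alkbh2 (7.33 ± 1.46 and 6.44 ± 0.855 CPM), Alkbh1 (27.9 ± 5.69 and 30.9 ± 1.15 CPM) and Alkbh8 (25.7 ± 12.5 and 30.03 ± 1.58 CPM), and Alkbh7 had the largest p (18.3 ± 7.68 and 19.1 ± 1.28 CPM).

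The isoforms of the members were examined next, as shares of each gene's estimated counts. In the test of transcript usage (edgeR, BH adjusted, with a change of over 10 percentage points), 31 of 10441 genes (0.297%) were called and 0 of the 10 members, each of which had an adjusted p of 1 and an unadjusted p of 0.122 or more. Of 42 member transcripts compared, 0 had shares without overlap between groups, against 2.49% of 45752 transcripts. With shares taken per length, 1 of the 42 was without overlap, against 2.51% of the same transcripts. This was Ythdc2-202, a retained-intron transcript, at 8.73 ± 4.13% of Ythdc2 in Ag and 3.22 ± 1.28% with costimulation (SD, n = 5 per group). limma's test on the same counts called 145 genes and 0 members. The share of 19 member transcripts was at least 10% in either group, and these carry the account below.

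Wtap counts were assigned mostly to short coding transcripts. Wtap-204 and Wtap-205 encode 151 codons, against 396 codons in the full-length coding transcripts such as Wtap-201. The short ones made up 79.6, 92.0, 80.3, 77.4 and 91.5% of Wtap counts in Ag and between 80.6 and 87.3% in Ag+Costim. Wtap-204 held 62.7 ± 7.84% in Ag and 64.9 ± 5.51% with costimulation, and Wtap-205 held 21.5 ± 11.8 and 20.0 ± 5.90% (SD, n = 5 per group). The splicing table gave the opposite order. There, use of the end of Wtap-205 was 0.980 in Ag and 0.982 in Ag+Costim, and that of Wtap-204 was 0.0204 and 0.0179. Per length, the full-length coding transcripts were 20.6 ± 8.97% in Ag and 20.2 ± 3.21% with costimulation (SD, n = 5 per group), a difference of -0.45 percentage points, far inside the spread between libraries. Ag 2 and 5 were again the libraries apart, with 10.4 and 11.5% full-length against 25.8 to 29.6% in Ag 1, 3 and 4.

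The full-length transcript of Fto, Fto-201 with 502 codons, held 76.3, 93.2, 66.8, 75.4 and 93.2% of Fto counts in Ag and 89.3, 89.3, 92.9, 92.6 and 90.4% in Ag+Costim. Ag 1, 3 and 4 lay below all Ag+Costim libraries, while Ag 2 and 5 lay above them, and the means differed by 9.92 percentage points without a call (edgeR, adjusted p = 1). Fto-203 held much of the rest, with 11.6, 13.1 and 12.4% in Ag 1, 3 and 4.

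Mettl3-201, which encodes the full protein of 580 codons, held 56.6, 79.9, 84.7, 65.9 and 84.4% of Mettl3 counts in Ag and 78.8 to 88.2% in Ag+Costim. Mettl3-206, annotated as a target of nonsense-mediated decay, lacks an exon of 176 bases (chr14:52298640-52298815, minus strand) and held 14.4 ± 9.27% in Ag and 10.4 ± 4.32% with costimulation (SD, n = 5 per group). In the splicing table the percent spliced in (PSI, the fraction of transcripts with the exon, 1 value per group) of that exon was 0.903 in Ag and 0.927 in Ag+Costim, at a probability of 0.725. Transcript counts per length gave inclusion from 0.687 to 0.953 in Ag and from 0.827 to 0.928 with costimulation.

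Mettl14-201 (456 codons) held between 58.3 and 92.1% of Mettl14 counts in Ag and between 52.0 and 81.6% in Ag+Costim, with Ag+Costim 1 the lowest of the latter. Most of the remainder was on Mettl14-204 (377 codons), at 20.0 ± 13.4% in Ag and 26.6 ± 11.8% with costimulation (SD, n = 5 per group). Libraries of 1 group thus differed by more than the groups did. Mettl14-204 keeps an intron (chr3:123369691-123371274, minus strand) whose PSI was 0.0504 in Ag and 0.0329 with costimulation, at a probability of 0.627. Transcript counts per length gave a higher inclusion and the opposite direction, 0.150 ± 0.108 in Ag and 0.198 ± 0.0994 with costimulation (SD, n = 5 per group).

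For Ythdc1 the assignment to transcripts was the least stable of the members. Ythdc1-203, a protein-coding transcript of 728 codons, held 21.7, 50.8, 22.4, 23.4 and 89.1% of the counts in Ag and 86.6, 44.1, 38.1, 12.9 and 41.1% in Ag+Costim. Ythdc1-202 (710 codons) was listed at 0% in Ag+Costim 1 and at 53.2% in Ag+Costim 4. Ythdc1-208, annotated as a target of nonsense-mediated decay, held 11.7 ± 3.84% in Ag and 15.5 ± 4.53% with costimulation (SD, n = 5 per group). Ythdc1-202 and Ythdc1-208 lack an exon of 54 bases (chr5:86820633-86820686). In the splicing table its PSI was 0.9905 in Ag and 0.9903 with costimulation, at a probability of 0.558. Transcript counts per length gave a much lower inclusion, 0.540 ± 0.251 in Ag and 0.570 ± 0.247 with costimulation (SD, n = 5 per group). The extension of 24 bases printed above was included at 0.252 in Ag and 0.315 with costimulation, at a probability of 0.673. Transcript counts per length gave a lower inclusion and the opposite direction, 0.129 ± 0.106 in Ag and 0.115 ± 0.0872 with costimulation (SD, n = 5 per group), with the groups overlapping.

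**Figure D4:**
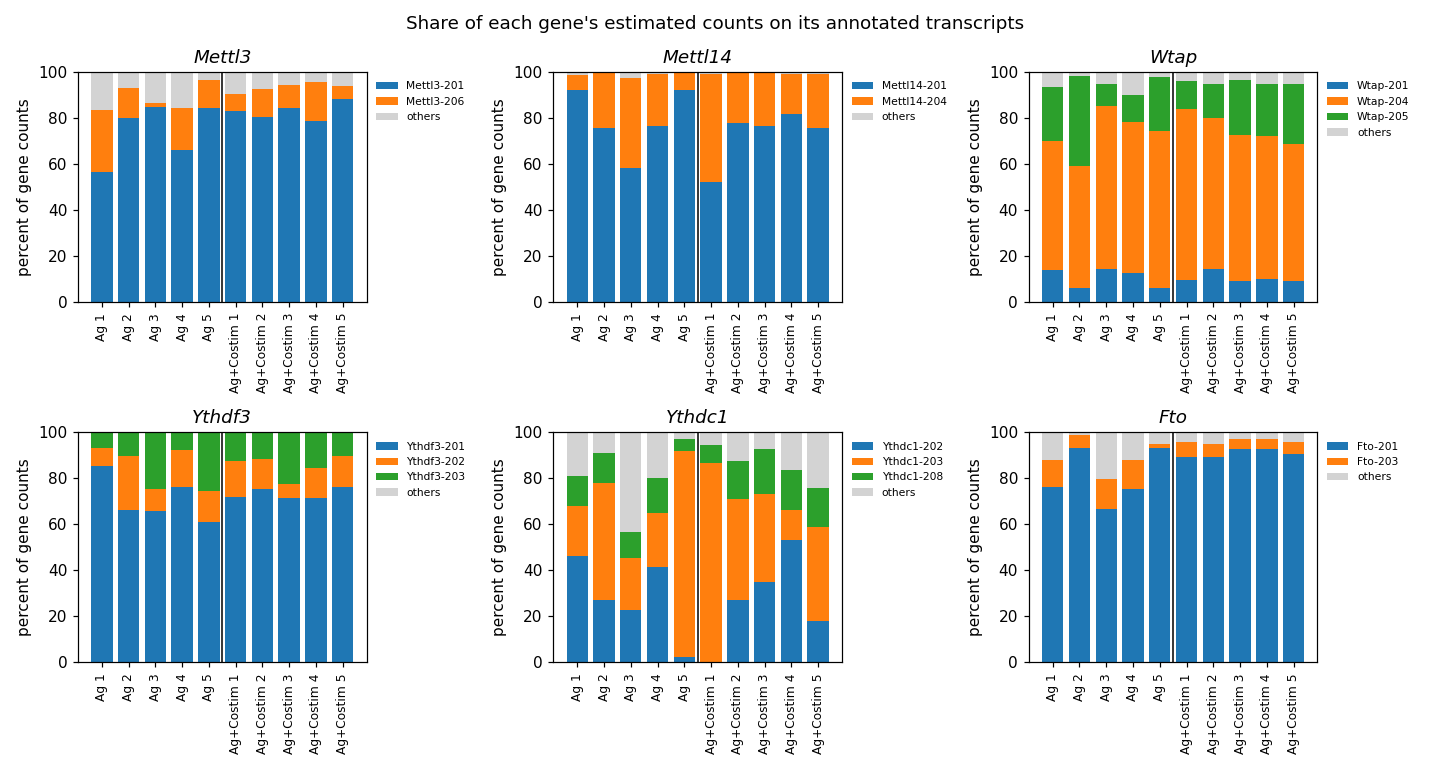
Share of each gene's estimated counts (y axis, percent) on its annotated transcripts in each library (x axis) for 6 members, with transcripts not named in grey. The shares of Fto-201, Wtap-201 and Mettl3-201 vary among the 5 Ag libraries by more than the group means differ.

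Ythdf2-203, the coding transcript of 579 codons, held between 64.0 and 91.7% of Ythdf2 counts in Ag and between 66.6 and 92.7% in Ag+Costim. The retained-intron transcript Ythdf2-202 held most of the rest, and was highest in Ag 1 (34.5%) and Ag+Costim 2 (31.7%). In the splicing table, however, use of the distal end, that of Ythdf2-203, was 0.237 in Ag and 0.231 in Ag+Costim. Use of the proximal end was 0.763 and 0.769. Ythdf2-201, which ends there, held 1.56 ± 0.758% of counts in Ag and 1.69 ± 0.200% with costimulation (SD, n = 5 per group). Alkbh5-201, Ythdf1-201 and Ythdc2-201 held at least 99.4, 98.4 and 87.7% of their genes' counts in every library. Per length, Ythdc2-201 held less, 64.1 ± 19.7% in Ag and 83.2 ± 6.13% in Ag+Costim with a lowest value of 46.1% in Ag 3, and the short retained-intron transcript Ythdc2-204 made up 26.5 ± 16.7 and 12.6 ± 4.85% (SD, n = 5 per group). The groups overlapped for both transcripts.

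In the table of splicing events, 2 of 125 member events passed the limits (probability above 0.9, PSI changed by more than 0.05), beside 1464 of 138940 events (1.05%). Both were alternative ends of Ythdf3. Since each group has a single PSI value, no test over libraries was possible, and the depth behind each value is unknown. The last exon of Ythdf3 has annotated ends at 1052, 2901 and 3083 bases from its start, which are the ends of Ythdf3-203, Ythdf3-202 and Ythdf3-201. The final 30 bases of each (mm10, plus strand) are printed to show the poly(A) signal (AATAAA or ATTAAA, searched on the transcript strand) in capitals.
Ythdf3-203, chr3:16214977-16215006: atccatgaATTAAAtcagtatctaagtgaa
Ythdf3-202, chr3:16216826-16216855: tcctatgATTAAAggaagggtatgatgaaa
Ythdf3-201, chr3:16217008-16217037: gagggtttcAATAAAaattgttcactctaa
All 3 ends held such a signal, starting 22, 23 and 21 bases before the end, while 44.1% of 58793 protein-coding transcripts had one in that window.

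Use of the most distal end was 0.503 in Ag and 0.335 in Ag+Costim, at a probability of 0.931. Use of the middle end was 0.0149 in Ag and 0.0864 in Ag+Costim (probability 0.947), and use of the proximal end was 0.482 and 0.580 (probability 0.888, outside the limit). Transcript counts per length did not show this difference between libraries. The transcript with the distal end was 81.7, 61.7, 57.3, 72.2 and 52.7% of Ythdf3 in Ag and 66.5, 70.0, 62.7, 65.0 and 71.2% in Ag+Costim, a difference of 1.98 percentage points in the opposite direction, within the SD of 11.8 in Ag. These transcripts also differ in an exon of 33 bases (in Ythdf3-202) and one of 149 bases (in Ythdf3-203), so their shares do not measure the ends alone.

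**Figure D5:**
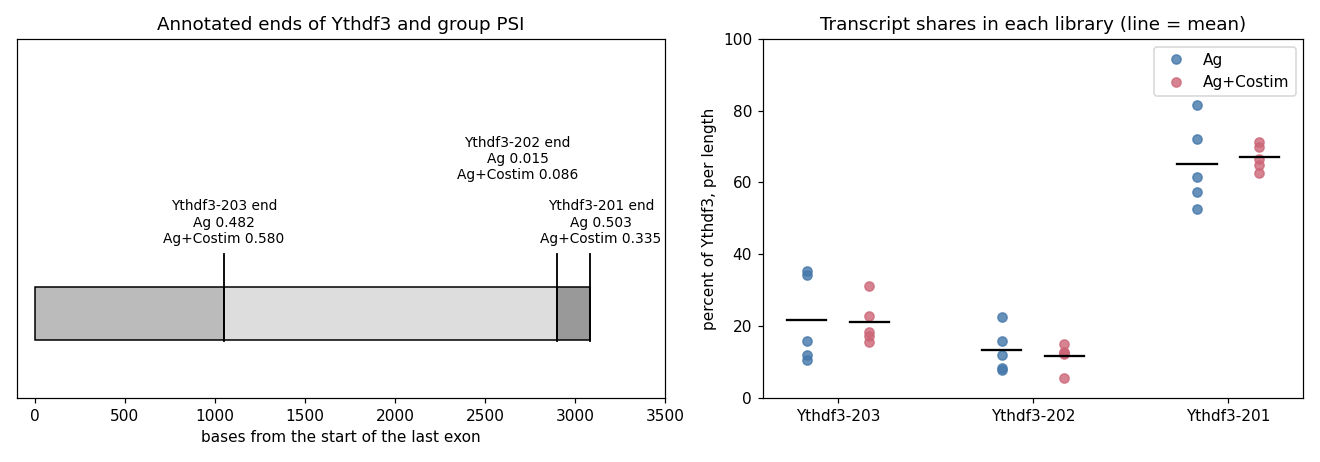
Left, the last exon of Ythdf3 to scale (x axis, bases from its start) with its 3 annotated ends and the PSI of each end in Ag and Ag+Costim. Right, the share of Ythdf3 per length (y axis, percent) on the transcript with each end in each library, with lines at the means: the distal end is 0.503 and 0.335 on the left, while the libraries of both groups overlap on the right.

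The member event with the highest probability, 0.991, was another exon of Ythdf3, of 86 bases (chr3:16189478-16189563), included at 0.996 in Ag and 0.952 with costimulation. Its difference of -0.044 is just under the limit of 0.05, so it was not called. The exon of 25 bases shared by the paralogs was included at 0.896 in Ag and 0.830 with costimulation in Ythdf3 (probability 0.777), at 0.983 and 0.991 in Ythdf1 (probability 0.61) and at 0.998 and 0.999 in Ythdf2 (probability 0.653). Ythdf3 was thus the paralog that skipped it most in either group.

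In each of the other members the leading event fell short of the limit. In Ythdc2 an exon of 197 bases (chr18:44833022-44833218) was at 0.864 in Ag and 0.964 in Ag+Costim, at a probability of 0.881. All 28 core exons of Ythdc2 had a higher PSI in Ag+Costim, with a median difference of 0.0156. The same direction held for 77 of the 88 core exons of the members (87.5%), all 9 of Mettl3 among them, and for 79.5% of all core exons in the table. Exons of 1 gene are not separate observations. In Ythdc1, use of a start segment (chr5:86804233-86804563) was 0.0825 in Ag and 0.00968 in Ag+Costim (probability 0.842), and in Mettl14 a start segment (chr3:123385932-123385985) was at 0.895 and 0.960 (probability 0.817). The Ythdc1 segment begins at the start of Ythdc1-203, which held 41.5 ± 29.3% of counts in Ag and 44.6 ± 26.6% with costimulation. The Mettl14 segment begins at the start of Mettl14-204, which held 20.0 ± 13.4 and 26.6 ± 11.8% (SD, n = 5 per group). For both genes the splicing table and the transcript counts thus differed on the start in use. In Wtap the leading event was a start segment (chr17:12992193-12992259) at 0.0928 and 0.07225 (probability 0.745). In Ythdf1 it was an exon of 81 bases (chr2:180919906-180919986) at 0.0590 and 0.0305 (probability 0.638), and in Ythdf2 one of 80 bases (chr4:132210752-132210831) at 0.9989 and 0.9995 (probability 0.658). In Fto and Alkbh5 no event had a probability above 0.617 and 0.584 respectively, and the largest PSI differences were 0.00607 and 0.00112.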

How the data were processed

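Genes were matched by symbol to GENCODE M21 identifiers, whose coordinates are on mm10. The submitters' processing notes name HISAT2 2.1.0, SAMtools 1.9 and StringTie 2.1.0, and the authors made each expected count (an estimated count per gene or transcript) with StringTie and deposited it without normalization. The deposited counts carry no read depth, so totals are not read numbers. The authors' Whippet table holds 1 PSI fraction per group, a difference score and a probability score per event. Libraries came from a SMART-Seq v4 kit, and no source used here says that strand was kept. Rows with other identifiers (0.0458 to 0.308% of a library's counts) were left out.

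Here counts were rounded, filtered (filterByExpr), scaled by TMM and tested with edgeR 4.0.16 (quasi-likelihood, robust, R 4.3.3), with DESeq2 1.42.0 and limma 3.58.1 as alternatives. Scripts were tested on simulated data. The study describes each library as a separate biological replicate (5 mice per group), and the labels tie no library to an animal. Members, lists and tests were chosen with earlier results of these data known. All members were named, and of each other list every called gene, the 4 genes with the smallest p and the gene with the largest p. Transcripts were named at a share of 10% or more, and events if called or the most probable of their gene. Other genes, transcripts and events named were chosen after their values were seen. Counts for Naive libraries were not used here.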

Additional observations from a re-analysis of the deposited data

Results flagged for a closer look

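Among 20 groups of 5 values (10 members in Ag and in Ag+Costim), 1 held a library far from the others by Dixon's criterion (gap over range above 0.71). Wtap was at 78.7 CPM in Ag+Costim 5, below the other 4 libraries of that group, with a gap of 0.764 of the range. The whole group spanned only 78.7 to 85.0 CPM, and chance flags about 1 in 20 groups.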

How the results depend on the processing

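Across the alternatives, 202 of 246 values kept their direction and their side of the threshold. Against 0 members called, DESeq2 called 2, limma voom 6 and edgeR without Ag 2 and 5 called 7. Against 1 member without overlap, total counts gave 2, median-ratio and upper-quartile scaling 0, no filter 3, leaving out Ag 1 and 4 together 3 and leaving out Ag 2 and 5 together 7. Over all genes tested, 1086 of 24262 were higher without overlap in the main run, 670 with total counts, 698 with median-ratio and 360 with upper-quartile scaling. Without a filter there were 2629 of 54224, and without Ag 1 and 4 there were 1747 of 25237. Without Ag 2 and 5, 6274 of 33480 genes were higher and 11348 lower. Leaving out 1 library at a time gave 0 members called and 1 to 3 without overlap: 3 without Ag 4 or Ag 5 and 2 without Ag 1, Ag 2, Ag 3, Ag+Costim 2 or Ag+Costim 3. Between 1103 and 1904 genes were then higher without overlap, of 24533 to 27723 tested. All these gene counts include genes under 10 CPM. In the main run 4.48% of all genes tested were higher without overlap, against 11.3% of those at 10 CPM or more. Of the other pathway genes, DESeq2 called 8, limma voom 31 and edgeR without Ag 2 and 5 (chosen after seeing the data) 32, against 0, where the last 2 settings called 70.1 and 66.1% of the genes at 10 CPM or more. Signs reversed with total counts for Mettl3 (-0.078), Ythdf3 (-0.087) and Ythdc2 (-0.088), with upper-quartile scaling for Mettl3 (-0.054), Ythdf3 (-0.024) and Ythdc2 (-0.018), and without a filter for Ythdc1 (0.12). The distal end of Ythdf3 reversed from -16.9 to 1.98 percentage points with transcript counts. Of the 2 member events called, 0 passed a probability of 0.95 and 1 a difference of 0.1. The cause of these shifts was not tested. A replicate block called 0 members for abundance and 0 for transcript usage, and same-numbered libraries did not deviate together (correlations -0.437 to 0.209). No member was called for transcript usage under any alternative (8 could be tested with a minimum of 50 counts), including without Ag 2 and 5 (chosen after seeing the data). Totals of estimated counts were lowest in Ag 3 and give no read depth.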
